A study of Rattus norvegicus with 8 samples.

Results

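The chemokine genes Ccl2, Ccl3, Ccl4, Ccl5, Ccl7, Cxcl1, Cxcl2, Cxcl10, Cxcl12 and Cx3cl1 were examined in rat hippocampal slice cultures. They were taken by name: every probe set whose single gene symbol in the platform annotation was one of these 10 genes was included, which gave 12 of the 31099 probe sets on the arrays. Cxcl12 had 3 probe sets and each other gene had 1. After a filter on dim probe sets (mean log2 value over the arrays at or above the 40th percentile), 9 of the 12 were tested. Those of Cxcl2 and Cxcl10 and 1 of Cxcl12 were too dim and are given as values.

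The arrays held RNA from CA1 or CA3, fields of hippocampal pyramidal neurons, cut out of slice cultures, which are thin explants kept alive in a dish. There was 1 array of CA1 lesion cultures, 1 of CA3 lesion cultures, 3 of CA1 control cultures and 3 of CA3 control cultures. All were at 7 days and each was pooled from 15 cultures. The controls are numbered 1 to 3 in each field, and both lesion arrays carry the number 1 in their titles. The lesion fit did not use these numbers. The kind of lesion, the starting point of the days, the age and strain of the rats and the meaning of the numbers are not stated in the labels. Because each lesion group was a lone array, its spread was borrowed from the controls.

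Chemokines are small secreted proteins that steer the movement of cells by activating G protein-coupled receptors. CC chemokines such as Ccl2 mainly draw monocytes, macrophages and T cells, CXC chemokines such as Cxcl1 draw neutrophils, and Cxcl10 draws activated T cells. In the brain many of them are made at low levels until microglia, astrocytes or vessel cells are stimulated, often through NF-kappa-B or interferon signalling, whereas Cxcl12 and Cx3cl1 are made constitutively, Cx3cl1 largely by neurons.

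The clearest pattern among the chemokines lay between the numbered controls. Ccl2, Ccl7 and Cxcl1 stood far above the other arrays in control 3 of both fields, by 7.56-fold, 7.61-fold and 6.82-fold over control 1. Ccl3 was 7.60-fold higher in control 3 than in control 1, with CA3 control 1 far below the other arrays. Over control 2, Ccl3 in control 3 was higher by only 0.58 in CA1 and 0.29 in CA3 on the log2 scale. Both lesion arrays had Ccl2, Ccl7 and Cxcl1 near the level of controls 1 and 2, while microglial markers were as high there as in the controls numbered 3. No member passed the limma test for the lesion, where 0 of 18625 tested probe sets did with 1 lesion array per field, and no member passed it between the fields. The count over all probe sets for the lesion depended on how the control numbers were handled. With the number as a block, or without control 3, probe sets other than the members passed, as given under processing.

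Ccl2, the main attractant of monocytes through the receptor Ccr2, had an intensity of 3686 in the CA1 lesion array, against 3879.9, 1325 and 19158 in CA1 controls 1 to 3. In CA3 it was 3891 in the lesion array, against 2238, 985 and 26167 in controls 1 to 3. Control 3 was the highest array in each field, and the lesion array lay inside the range of its controls in both. Ccl7, another monocyte attractant, which lies next to Ccl2 in the RefSeq annotation of the rat genome (GRCr8), had 550.5 in the CA1 lesion array against 454, 104 and 4019 in the CA1 controls, and 816 in the CA3 lesion array against 1001, 681 and 6849 in the CA3 controls. The order was again led by control 3, with the lesion array among controls 1 and 2 or above both of them. Cxcl1, a neutrophil attractant that acts through Cxcr2, had 1128 in the CA1 lesion array against 796, 553 and 6112 in the CA1 controls, and 1691 in the CA3 lesion array against 1085, 1183 and 6769 in the CA3 controls.

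**Figure D1:**
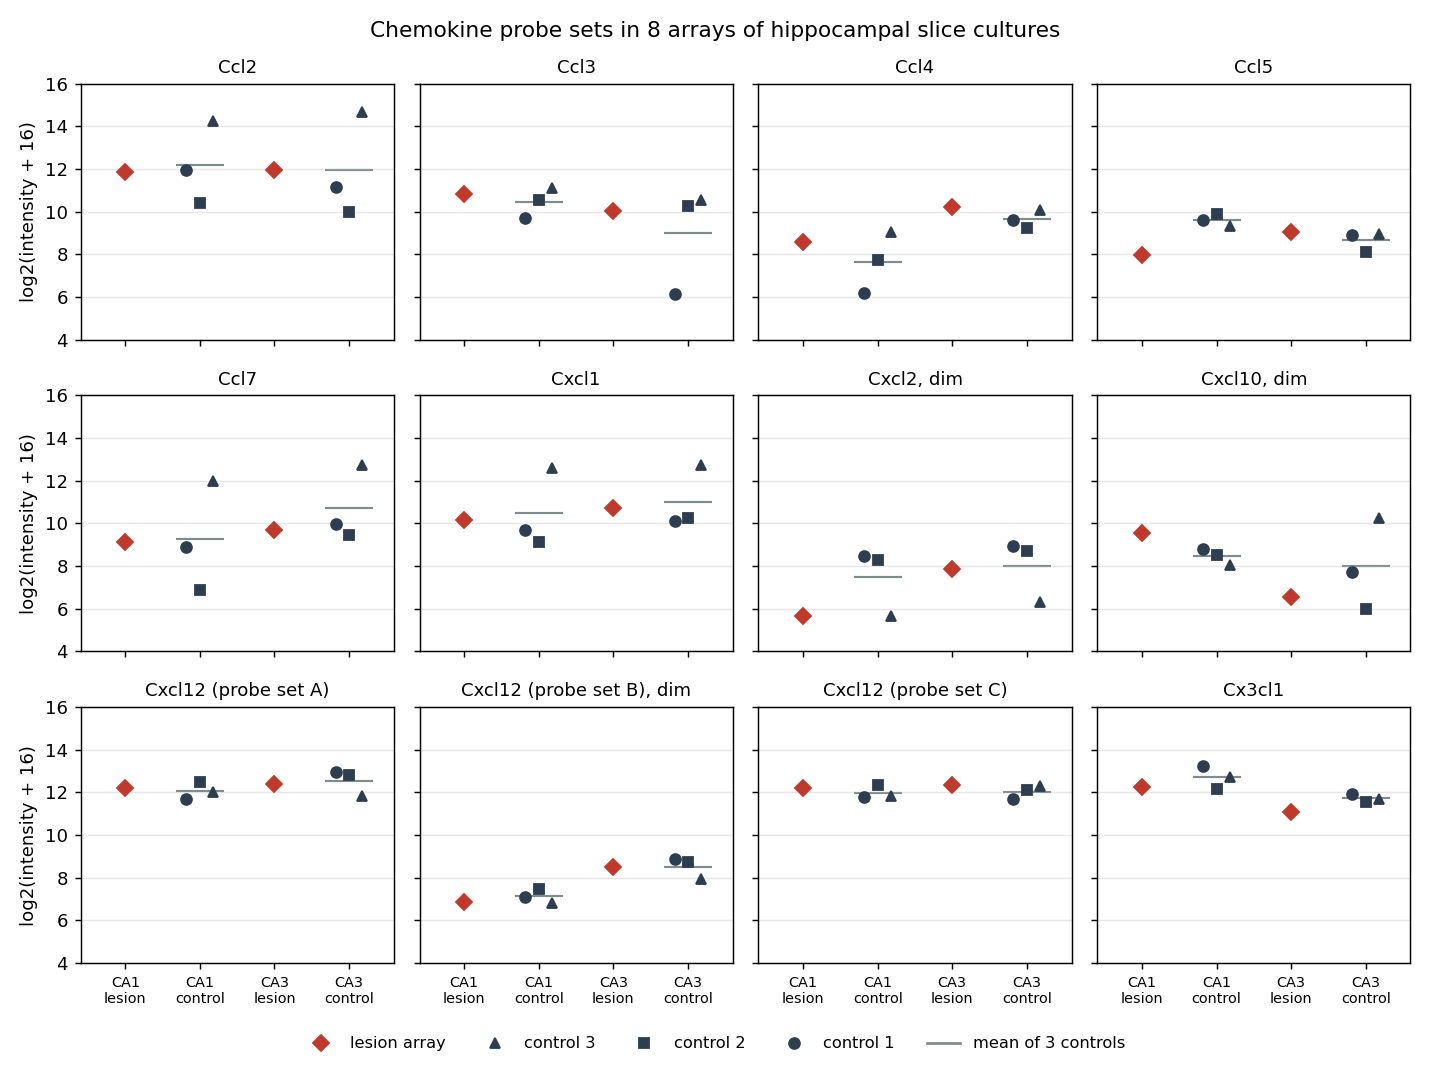
Each panel shows 1 chemokine probe set, with log2(intensity + 16) on the vertical axis and the 4 groups on the horizontal axis. Red diamonds are the single lesion arrays, dark symbols are the 3 controls of a field by number, and grey lines are the mean of the 3 controls. Control 3 is the highest of all arrays for Ccl2, Ccl7 and Cxcl1 in both fields, and the lesion arrays lie inside the control range for these genes.

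Control 3 was compared with control 1 in a fit to the 6 control arrays with field and control number as terms. Ccl2 differed by 2.92 ± 0.28 (log2 difference ± SE, 2 arrays against 2, limma adjusted p = 8.32e-05), Cxcl1 by 2.77 ± 0.34 (adjusted p = 0.000593), Ccl7 by 2.93 ± 0.50 (adjusted p = 0.00626) and Ccl3 by 2.93 ± 0.71 (adjusted p = 0.0370). All were higher in control 3 within each field, by 2.30 in CA1 and 3.54 in CA3 for Ccl2, 2.92 and 2.62 for Cxcl1, 3.10 and 2.76 for Ccl7, and 1.45 and 4.40 for Ccl3. These 4 of 9 tested member probe sets stand beside 4.51% of all 18625 tested probe sets called, 2.87% higher and 1.64% lower. The median over the 9 was 1.68, against -0.006 over all tested probe sets. The fit has 2 residual degrees of freedom. With no intensity trend in the variances 0 members and 0 of all probe sets passed, the 4 adjusted p-values then running from 0.182 to 0.391. Without CA1 control 3 only Ccl2 passed (3.45), without CA3 control 3 Ccl2 (2.39) and Cxcl1 (3.08) did, and without CA3 control 1 Ccl3 no longer did (1.38). Calls over all probe sets were 127 without CA1 control 3 and 108 without CA3 control 3, against 1547 without CA1 control 1, where Cxcl12 passed as well (-0.95), and 1503 without CA3 control 1, all on 1 residual degree of freedom and compared with 840 in the full fit.

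A gap of at least 4-fold to both other controls in both fields was met by 31 or 0.166% of all tested probe sets. This limit was chosen after the values were seen. The 31 included Ccl7, Cxcl1 and Ccl2, with smaller gaps of 2.76, 2.50 and 2.30 on the log2 scale. Among the further chemokines described below, Ccl6 (2.40) and Pf4 (2.29) met it as well. The labels do not say what the number of a control stands for, so a preparation, a batch of cultures and a handling step cannot be told apart here. The ratio of 3' to 5' signal of Gapdh, which rises as RNA degrades, was 5.0 in CA1 control 3 and 3.93 in CA3 control 3, against 4.98 and 3.75 in the controls numbered 2 and 3.71 and 3.84 in those numbered 1. It was 4.65 with the lesion in CA1 and 5.23 with the lesion in CA3. The same ratio for beta-actin was 18.3 in CA1 control 3 and 15.0 in CA3 control 3. It was 14.5 and 21.4 in the controls numbered 1, 22.2 and 20.3 in those numbered 2, and 17.3 and 19.8 with the lesion. The part of RNA quality in the chemokine differences was not tested.

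The sequence before the start site of Cxcl1 is shown beside those of its neighbour and close relative Cxcl2, which did not follow it across the arrays, and of Ccl7, which did. Each is the 250 bases upstream of the annotated start from RefSeq (GRCr8), at chr14:17479322-17479571 (minus strand), chr14:17467256-17467505 (minus strand) and chr10:67513845-67514094 (plus strand), written 5' to 3', and capitals mark matches to the kappa-B consensus, the site of NF-kappa-B factors, on either strand.
Cxcl1: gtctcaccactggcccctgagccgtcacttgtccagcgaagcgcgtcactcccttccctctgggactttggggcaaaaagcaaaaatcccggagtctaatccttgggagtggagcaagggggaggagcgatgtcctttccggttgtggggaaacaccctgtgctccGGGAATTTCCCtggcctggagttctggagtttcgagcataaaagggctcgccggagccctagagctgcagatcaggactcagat
Cxcl2: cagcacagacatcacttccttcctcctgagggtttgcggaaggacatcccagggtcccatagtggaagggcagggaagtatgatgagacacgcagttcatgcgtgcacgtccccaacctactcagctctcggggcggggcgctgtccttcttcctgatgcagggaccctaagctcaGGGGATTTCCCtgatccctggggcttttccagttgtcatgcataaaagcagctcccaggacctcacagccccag
Ccl7: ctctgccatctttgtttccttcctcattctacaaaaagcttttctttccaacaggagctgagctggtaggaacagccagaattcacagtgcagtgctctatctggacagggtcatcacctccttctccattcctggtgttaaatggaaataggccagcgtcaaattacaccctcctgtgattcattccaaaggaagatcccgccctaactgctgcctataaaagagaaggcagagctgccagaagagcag

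In Cxcl1 a pair of overlapping matches covered positions -84 to -74 from the start, and in Cxcl2 a pair covered positions -74 to -64. Ccl7 held no match in this window. Promoter windows were matched for 6 of the 10 members, and 3 of the 6 held the kappa-B consensus (Cxcl1, Cxcl2 and Cxcl10), against 3.54% of 33469 rat promoter windows of the same length. The AP-1 motif was searched on both strands with any base at its centre, as TGANTCA, and 6.34% of windows held it. It lay at -96 to -90 in the Cxcl10 window, as TGAGTCA. In the Ccl7 window it lay at -73 to -67 as TGATTCA, which is not the usual AP-1 site with C or G at the centre. Such matches describe the letters and not the binding of a factor.

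Cxcl2, also a ligand of Cxcr2, ran the other way but was dim. Its intensity was 34.96 in the CA1 lesion array against 337, 299 and 33.7 in the CA1 controls, and 215 in the CA3 lesion array against 473, 402 and 63.2 in the CA3 controls. Control 3 was the lowest control in both fields, an order held by 18% of the tested probe sets. In the fit with no filter on dim probe sets the difference of control 3 from control 1 was -2.73 ± 1.21 (SE, limma adjusted p = 0.359), where 2.74% of 31042 probe sets were called. The lesion effect in that fit was -0.96 ± 1.09 (adjusted p = 0.931), and 0% of all probe sets were called for it.

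Ccl3, Ccl4 and Ccl5 are typical products of activated microglia, macrophages and T cells. Ccl3 had 1776 in the CA1 lesion array against 803, 1482 and 2218 in the CA1 controls, and 1013 in the CA3 lesion array against 55.2, 1220.5 and 1491 in the CA3 controls. A single array, CA3 control 1, lay far below the rest, and the lesion arrays were within the range of their controls. Ccl4 had 364 in the CA1 lesion array against 57.0, 194 and 521 in the CA1 controls, and 1165 in the CA3 lesion array against 766, 589 and 1069 in the CA3 controls. The CA3 controls all lay above the CA1 controls for Ccl4, by 1.99 ± 0.78 (log2 difference ± SE, 3 arrays in each field, adjusted p = 0.535 in limma). Control 3 was above control 1 by 1.68 ± 0.99 for Ccl4 (adjusted p = 0.430).

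Ccl5 had 231 in the CA1 lesion array against 754, 931 and 632 in the CA1 controls, and 509 in the CA3 lesion array against 466, 259.9 and 484 in the CA3 controls. The lesion array was thus below all its controls in CA1, as for 24.8% of all tested probe sets, and just above all of them in CA3, as for 29.7%. Opposite departures of this kind in the 2 fields were found for 9.49% of tested probe sets, and the difference between the lesion effects of the fields had an unadjusted p under 0.05 for 3.09% of them and not for Ccl5. The CA3 controls were all below the CA1 controls, with a difference of -0.94 ± 0.55 (SE, n = 3 per field, limma adjusted p = 0.694). Control 3 differed from control 1 by -0.10 ± 0.71 for Ccl5 (adjusted p = 0.967).

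Cxcl10, an interferon-induced attractant of T cells through Cxcr3, had 721 in the CA1 lesion array against 428, 346 and 250.1 in the CA1 controls, and 77.1 in the CA3 lesion array against 198, 46.5 and 1216 in the CA3 controls. It was dim, and its highest array was CA3 control 3, while CA1 control 3 was the lowest of the CA1 controls. With no filter its lesion effect was 1.08 ± 1.49 in CA1 and -1.45 ± 1.49 in CA3 (SE, limma adjusted p = 0.989 and 0.958).

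Cx3cl1, the membrane-bound chemokine of neurons whose receptor Cx3cr1 is carried by microglia, had 4830.2 in the CA1 lesion array against 9660.25, 4509 and 6781 in the CA1 controls, and 2151 in the CA3 lesion array against 3919, 3011 and 3286 in the CA3 controls. Every CA3 control lay below every CA1 control, and the CA3 lesion array was the lowest of all 8, below its own controls as were 24.8% of tested probe sets. The difference of CA3 from CA1 controls was -0.97 ± 0.28 (SE, n = 3 per field, 1.96-fold lower in CA3, limma adjusted p = 0.279). The lesion effect was -0.46 ± 0.39 in CA1 and -0.65 ± 0.39 in CA3, with adjusted p-values of 0.999 and 0.937. Of 8 neuronal markers, 8 were higher in the CA3 controls than in the CA1 controls (median 0.51), as were 45.5% of all tested probe sets. Only 1 of the 8, Nefl, passed the threshold, beside 0.285% of all tested probe sets called higher. The part of neuron content in the Cx3cl1 difference was not tested.

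Cxcl12, the constitutive ligand of Cxcr4 and Ackr3, varied least among the members in its pair of brighter probe sets. The first (A, 1369633_at) had 4763 in the CA1 lesion array against 3245, 5646 and 4179 in the CA1 controls, and 5444 in the CA3 lesion array against 7828, 7289 and 3678 in the CA3 controls. The third (C, 1388583_at) had 4694 in the CA1 lesion array against 3472, 5284 and 3624 in the CA1 controls, and 5216 in the CA3 lesion array against 3292, 4392 and 5103 in the CA3 controls. Their ranges over the 8 arrays were 1.27 and 0.68 log2 units, against 4.71 for Ccl2 and 5.84 for Ccl7. A and C did not run together (Pearson's r of log2 values = -0.01, n = 8 arrays). Control 3 differed from control 1 by -0.36 ± 0.29 for A and 0.35 ± 0.24 for C (SE, limma adjusted p = 0.589 and 0.521). The value of -0.95 without CA1 control 1, given above, was for A. The dim second probe set (B, 1387655_at) had 99.98 in the CA1 lesion array against 119.8, 164 and 96.1 in the CA1 controls, and 343 in the CA3 lesion array against 458, 406 and 227 in the CA3 controls. All CA3 controls lay above the CA1 controls by this probe set only, with a difference of 1.38 ± 0.86 with no filter (SE, limma adjusted p = 0.773), whereas the brighter ones differed by 0.48 ± 0.31 and 0.05 ± 0.24 (adjusted p = 0.718 and 0.975).

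**Figure D2:**
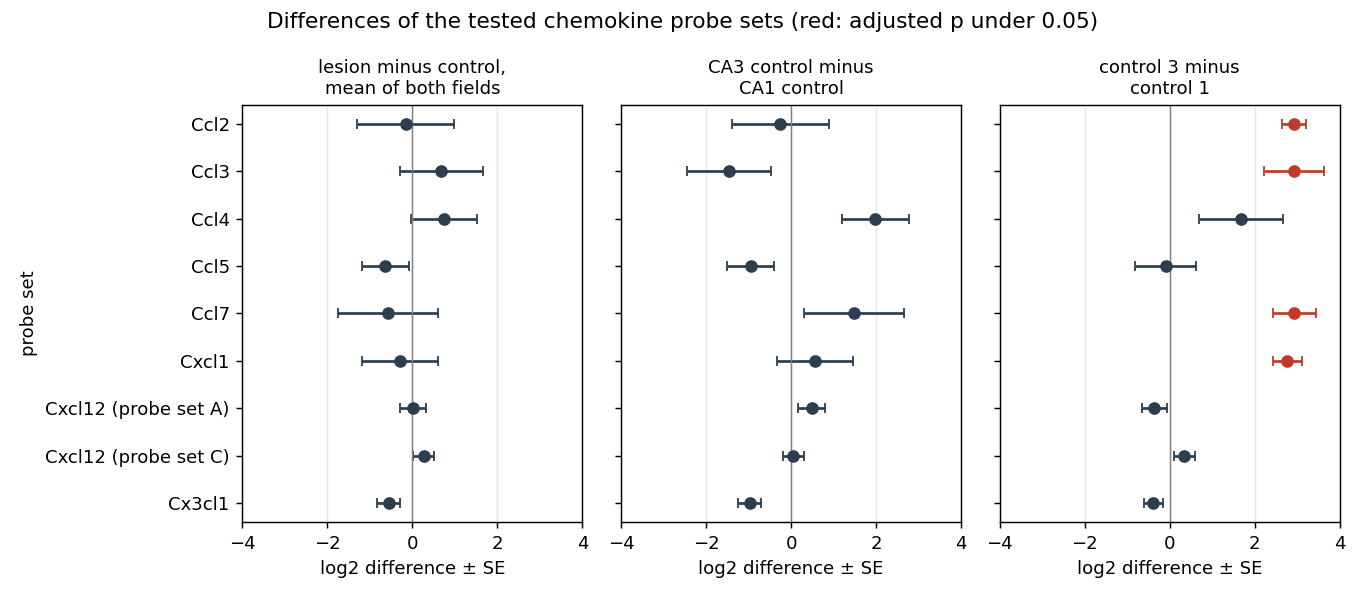
Points are log2 differences of the 9 tested chemokine probe sets and bars are SE from limma, for lesion minus control averaged over both fields (2 arrays against 6), CA3 minus CA1 controls (3 against 3) and control 3 minus control 1 (2 against 2). A and C are the brighter probe sets of Cxcl12. The 4 red points in the third panel, Ccl2, Ccl3, Ccl7 and Cxcl1, are the ones past an adjusted p of 0.05.

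For the mean lesion effect over both fields, limma called 0 of 9 tested member probe sets, none of them below an unadjusted p of 0.05, beside 0% of all tested probe sets called and 6.41% with an unadjusted p under 0.05. Of the 9 probe sets, 4 were higher and 5 lower in the lesion arrays, with a median of -0.16 against 0.02 over all. Values were -0.16 ± 1.15 for Ccl2, -0.57 ± 1.18 for Ccl7, -0.29 ± 0.89 for Cxcl1, 0.69 ± 0.99 for Ccl3, 0.74 ± 0.78 for Ccl4, -0.64 ± 0.55 for Ccl5 and -0.56 ± 0.28 for Cx3cl1 (SE, 2 lesion arrays against 6 controls, adjusted p from 0.787 to 0.993 over the 9). Without control 3 of both fields Ccl2 was 1.04, Ccl7 0.62 and Cxcl1 0.66 (adjusted p = 0.356, 0.794 and 0.526), so that their sign turned. With CA1 control 3 alone left out it turned as well, to 0.35, 0.12 and 0.23, and without CA3 control 3 alone Ccl2 was 0.53, Cxcl1 0.13 and Ccl7 -0.06. In the single fields 0 of 9 passed and 0 had an unadjusted p under 0.05, beside 0% of all tested probe sets called and, without adjustment, 3.63% in CA1 and 4.68% in CA3.

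Between the fields, limma called 0 of 9 member probe sets, beside 0.526% of all tested probe sets, and Ccl4 and Cx3cl1 were the 2 below an unadjusted p of 0.05, as were 8.31% of all. Of the 9, Ccl4 was the only one with all CA3 controls above all CA1 controls, as were 6.06% of all tested probe sets, and Ccl5 and Cx3cl1 had them all below, as did 8.85%. Ccl2 differed by -0.25 ± 1.15, Ccl7 by 1.47 ± 1.18 and Cxcl1 by 0.55 ± 0.89 (SE, adjusted p = 0.974, 0.781 and 0.901). The dissected fields differed in pyramidal markers, given as medians relative to the mean of the 8 arrays. For 4 CA1 markers the median was -2.31 to -1.33 in CA3 arrays and 1.35 to 2.24 in CA1 arrays. For 5 CA3 markers it was 0.26 to 0.99 in CA3 arrays and -0.89 to -0.32 in CA1 arrays. In the CA3 controls 4 of these 5 were higher, as were 45.5% of all tested probe sets, and Prkcd was lower (-0.19, limma adjusted p = 0.86). Of the 5, 2 passed and were higher, beside 0.285% of all. Median intensities of the arrays ran from 561 to 815.

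Microglia and macrophage markers were compared with the chemokines array by array, since these cells are a source of several of them. The summed intensity of 13 markers was 148945 with the lesion in CA1 and 106761 with the lesion in CA3, 104179 and 87875 in CA1 and CA3 control 3, and 7066 to 17008 in controls 1 and 2 of both fields. None of the 13 was listed at 0 and 10 passed the filter. Of these, 9 passed and rose in control 3 over control 1, beside 2.87% of all tested probe sets, with a median of 3.30, and 10 of 10 were higher in the lesion arrays, with a median of 2.60 and 0 past the threshold. Of 8 astrocyte markers 2 passed and rose in control 3 (median 0.36, beside 2.87% of all), and of 8 neuronal markers 3 passed and fell (median -0.62, beside 1.64% of all). The part of these cells in the chemokine differences was not tested. Lesion arrays and controls numbered 3 were both high in these markers, while Ccl2, Ccl7 and Cxcl1 stood highest in the controls numbered 3. Set against control 3 of the same field, the lesion array differed by -2.37 in CA1 and -2.74 in CA3 for Ccl2, -2.83 and -3.04 for Ccl7, and -2.42 and -1.99 for Cxcl1. Against control 1 of the field, Ccl2 differed by -0.07 in CA1 and 0.79 in CA3. Ccl7 then differed by 0.27 and -0.29, and Cxcl1 by 0.49 and 0.63. Each of these differences is 1 array against 1 and has no test. A lesion array at least 3-fold below control 3 in both fields was found for 59 or 0.317% of all tested probe sets, these 3 genes among them. This limit too was chosen after the values were seen. In bulk RNA such as this, fewer cells of a type and less RNA per cell cannot be told apart.

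Other blood cells that respond to these chemokines left little signal. Of 7 T and NK cell markers 1 passed the filter, Lck, with a difference of control 3 from control 1 of -1.33 (limma adjusted p = 0.243). Their summed intensity was 1903 (CA1) and 2970.0 (CA3) after the lesion, 3104 and 1948 in the controls numbered 3, and 1689 to 3808 in controls 1 and 2. Of 3 neutrophil markers on the arrays 1 passed, S100a9, with lesion arrays at a summed 524 and 1244, controls numbered 3 at 1558 and 369, and the other controls at 551 to 1321.

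**Figure D3:**
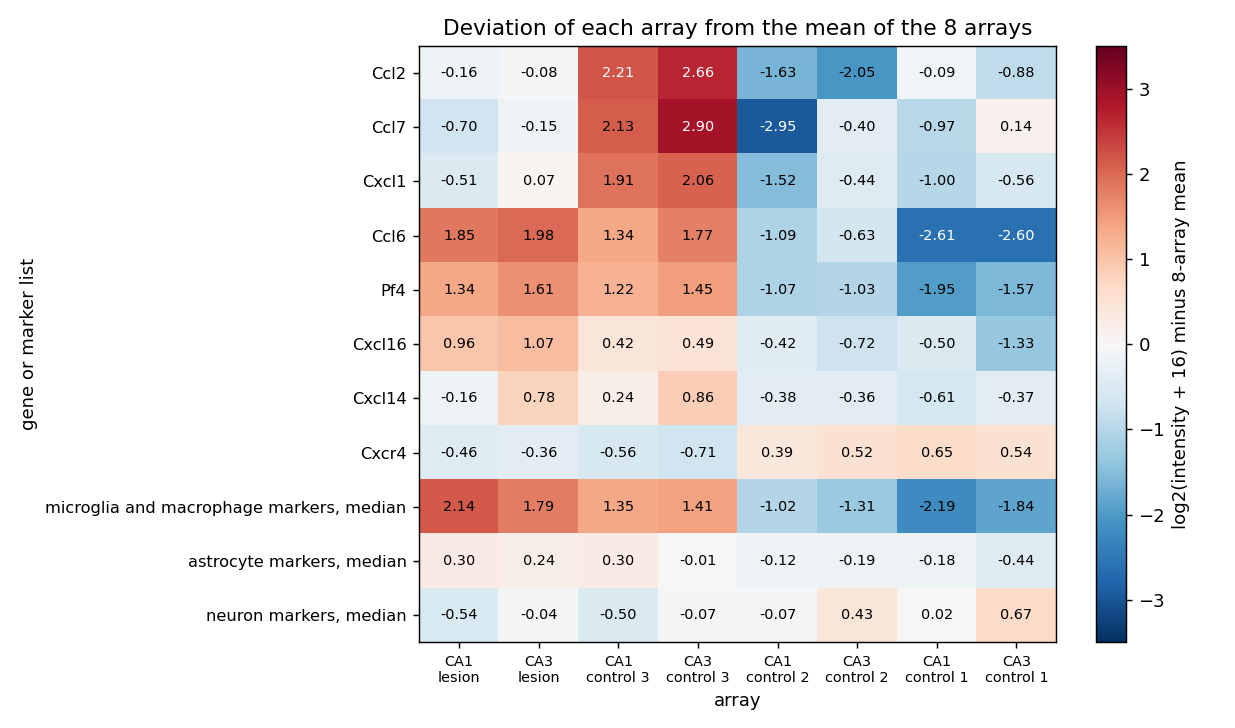
Each cell is the deviation of log2(intensity + 16) from the mean of the 8 arrays, for the brightest tested probe set of a gene (rows) or the median of a marker list, with arrays in columns and red for higher. Ccl2, Ccl7 and Cxcl1 deviate by 1.91 to 2.90 in the columns of control 3 and by at most 0.14 above the mean elsewhere, whereas Ccl6, Pf4, Cxcl16 and the microglial markers are raised there and in the lesion arrays, and Cxcr4 is low in the same 4 columns.

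Of 24 further chemokines listed with earlier results known, 21 were on the arrays and 7 passed the filter. In control 3 over control 1, 4 of the 7 passed and rose, beside 2.87% of all tested probe sets, and 0 fell, with a list median of 1.15 against -0.006. Ccl6, a macrophage chemokine, had 22546 in the CA1 lesion array against 1013, 2934 and 15819 in the CA1 controls, and 24639 in the CA3 lesion array against 1014, 4028 and 21278 in the CA3 controls. Control 3 exceeded control 1 by 4.16 ± 0.23 for Ccl6 (SE, limma adjusted p = 4.8e-07), and the lesion arrays exceeded control 3 by 0.51 in CA1 and 0.21 in CA3. Pf4, platelet factor 4, which macrophages also make, rose by 3.10 ± 0.35 in control 3 over control 1 (adjusted p = 0.000303), and had 5016 (CA1) and 6026 (CA3) after the lesion against 4607 and 5405 in the controls numbered 3. Cxcl16, a membrane-bound ligand of Cxcr6, rose by 1.37 ± 0.31 (adjusted p = 0.0302) and Cxcl14 by 1.04 ± 0.21 (adjusted p = 0.0172). For the mean lesion effect 0 of the 7 passed, and 0 had an adjusted p below 0.771. Values were 2.55 ± 1.08 for Ccl6, 1.97 ± 0.86 for Pf4, 1.36 ± 0.44 for Cxcl16 and 0.41 ± 0.34 for Cxcl14, with a list median of 1.14 against 0.02.

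Among 23 chemokine receptors, 17 were on the arrays and 5 passed the filter. Cxcr4, the signalling receptor of Cxcl12, had 6132 in the CA1 lesion array against 13250.5, 11072 and 5749 in the CA1 controls, and 6573 in the CA3 lesion array against 12305, 12136 and 5180 in the CA3 controls, by its brightest probe set. The lesion arrays and the controls numbered 3 were all below controls 1 and 2. For the controls alone, control 3 was the lowest in both fields for 18% of all tested probe sets. Of the 5 tested receptors, 1 passed and fell in control 3 against control 1, beside 1.64% of all tested probe sets, and 0 passed and rose. Cxcr4 fell in control 3 relative to control 1 by this probe set (-1.22 ± 0.18, SE, limma adjusted p = 0.00202) and by a second one (-1.26, adjusted p = 0.00207), while the third had -1.28 (adjusted p = 0.0635). Its mean lesion effect was -0.55 ± 0.38 (adjusted p = 0.812). Ackr3, the scavenger receptor of Cxcl12, had a lesion effect of 0.57 ± 0.47, Cxcr5 of -0.61 ± 0.71 and Cx3cr1 of 0.57 ± 1.0 (adjusted p = 0.837, 0.885 and 0.926).

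Cx3cr1 varied without order, at 480.2 in the CA1 lesion array against 104, 891 and 689 in the CA1 controls, and at 422 in the CA3 lesion array against 520.3, 177 and 104 in the CA3 controls. Ccr2, Cxcr2 and Cxcr3, the receptors of Ccl2, Cxcl1 and Cxcl10, did not pass the filter. Ccr2 was 17.3 to 673, Cxcr2 26.6 to 607 and Cxcr3 127 to 525 over the 8 arrays.

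Among 26 cytokines, sensors and transcription regulators upstream of chemokines, 24 were on the arrays and 19 passed the filter. All 19 were higher in control 3 than in control 1 (median 0.96 against -0.006 over all), as were 49.6% of all tested probe sets. Of the 19, 1 rose past the threshold, beside 2.87% of all: Fos, a component of AP-1, at 1.0 ± 0.23 (SE, limma adjusted p = 0.0325), named after its value was seen. In the lesion arrays 16 of 19 were higher and 0 passed, with a median of 0.46. The interferon regulatory factor Irf8 was at 2.06 ± 0.68, the cytokine Il18 at 1.34 ± 0.57, Irf1 at 0.89 ± 0.45 and Jun at -0.38 ± 0.16 (adjusted p = 0.771, 0.771, 0.796 and 0.771).

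The genes that ran most closely with each member over the 8 arrays are given as a description, since the arrays share their control numbers and fields. Picking the highest r from so many probe sets on 8 arrays gives high values by selection, and differences between members were not tested. Ccl7 and Cxcl1 correlated at 0.954, Ccl2 and Cxcl1 at 0.896 and Ccl2 and Ccl7 at 0.849 (Pearson's r of log2 values, n = 8 arrays). Among tested probe sets with a single gene symbol, the highest for Ccl2 were Hmox1, heme oxygenase (0.982), Pvr (0.982) and Mapk1ip1l (0.974). Those for Cxcl1 were the hyaluronan receptor Cd44 (0.981), Eaf1 (0.977) and Flnc (0.972), and those for Ccl7 were Tent5b (0.960), Gadd45b (0.955) and Cxcl1. For Cx3cl1 they were Smim8 (0.984), Mknk2 (0.977) and Wdsub1 (0.969). Ccl3 ran with Iqca1 (0.983), Map4k4 (0.978) and Psmd14 (0.977), Ccl4 with Copb1 (0.981), Sgk1 (0.975) and Lnpk (0.974), Ccl5 with Zbtb7a (0.963), Clcn6 (0.959) and Nr4a2 (0.955), and Cxcl12 A with Fbxo45 (0.957), Galnt1 (0.939) and Bltp2 (0.938).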

How the data were processed

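The 8 arrays were deposited as linear signal intensities. The 2% trimmed mean of each was about 2501, from which the deposited intensities were taken to be scaled by the authors to a common level; the software is not given in the sources used here. Groups came from the sample titles. Of 31099 probe sets, 57 controls were removed. Values were used as log2(intensity + 16), so fold changes understate those of dim probe sets, and 18625 probe sets at or above the 40th percentile of the mean were tested. Gene symbols came from the platform annotation (20832 probe sets with 1 symbol, 436 with several, 9831 with none, the last not named), of which 20764 matched RefSeq for GRCr8 and 0 changed.

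The 8 arrays were fitted with a coefficient for each group in limma 3.58.1 in R 4.3.3 (intensity trend, 4 residual degrees of freedom, Benjamini-Hochberg over 18625 probe sets, threshold 0.05), lesion arrays being assumed to vary like controls. The control numbers were compared in a fit to the 6 controls. The fits were also run on simulated data with noise independent between arrays. For the lesion and field contrasts these data held no shared effect of control number, so they do not cover such an effect. Nothing in the labels says that samples came from separate animals or preparations, so p-values measure the spread between these arrays, which may be technical, and their small number limits precision. All 10 members are named, with up to 4 genes per further list by their p for the mean lesion effect, receptors of the members, and the 3 genes most correlated with a member. The members, lists and the comparison of control numbers were chosen with earlier results of these data known.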

Additional observations from a re-analysis of the deposited data

Results flagged for a closer look

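Ccl5 was marked because the lesion arrays left the range of their controls in opposite directions in the 2 fields, below all 3 in CA1 (231 against 632 to 931) and above all 3 in CA3 (509 against 259.9 to 484). The effect in CA3 exceeded that in CA1 by 2.03 ± 1.11 on the log2 scale (SE, limma adjusted p = 1.0 over all tested probe sets), so the difference did not pass the test. Of all tested probe sets, 9.49% had lesion arrays beyond their controls in opposite directions.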

How the results depend on the processing

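Values are log2 differences or counts of called probe sets. Same-numbered controls of CA3 and CA1 deviated together with r of 0.155, 0.06 and 0.306 for numbers 1 to 3, and each correlated best with its own number, a hint from the data only, so they were taken to share only a number. With the replicate number as a block, all-probe-set calls were 358 between the fields, 697 for the mean lesion effect, 258 in CA1 and 310 in CA3, member calls between the fields were 1 (Cx3cl1, adjusted p = 0.0271), the mean lesion effect was 2.492 ± 0.701 for Ccl3 (adjusted p = 0.0837), 1.488 ± 0.893 for Ccl4 (0.460), 0.548 for Cxcl12 C (0.278), -0.929 for Cx3cl1 (0.0568) and -0.01 for Ccl7 (0.997) and turned to 0.36 (Ccl2) and 0.563 (Cxcl1), the CA1 effect to 0.194 (Ccl2), 0.45 (Ccl7) and 0.552 (Cxcl1) and the CA3 effect to 0.575 (Cxcl1). Without control 3 of both fields, calls were 182 for the mean lesion effect, 3 in CA1 and 6 in CA3; the mean effect turned to 1.037 (Ccl2), 0.62 (Ccl7), 0.661 (Cxcl1) and -0.159 (Cxcl12 A), the CA1 effect to 0.696, 1.256 and 0.752 (Ccl2, Ccl7, Cxcl1), the CA3 effect of Cxcl1 to 0.571 and the field difference of Cxcl12 C to -0.171. Without control 1 of both fields, field calls were 5, Ccl2 turned to 0.014 between the fields, Ccl3 to -0.219 (mean), -0.03 (CA1) and -0.408 (CA3), Cxcl12 A to -0.028 (CA1) and 0.072 (CA3), and Ccl2 to -0.39 (CA3). Quantile normalisation gave 0.038 for Ccl7 in CA1 and -0.045 for Ccl2 in CA3, and a pseudocount of 64 gave -0.011 for Ccl2 in CA3. Probe sets with x, s or a in the suffix of their name were taken as possibly cross-hybridising. Quantile normalisation, a pseudocount of 1 and removal of these probe sets each gave 5 calls in CA3. Without an intensity trend, calls were 0 between the fields and 0 for control 3 against control 1, over all probe sets and over members. Leaving out 1 array at a time gave 24 to 104 calls between the fields (24 to 47 without any one of the arrays of controls 1 and 2), 0 to 1 for the mean lesion effect, and for control 3 against control 1 (added after seeing the data, 1 residual degree of freedom) 108 to 1547 over all and 1 to 5 over members. Members that changed sign then ranged, between the fields, from -1.628 to 0.769 (Ccl2), -0.3 to 1.612 (Cxcl1) and -0.091 to 0.241 (Cxcl12 C). For the mean lesion effect they ranged from -0.651 to 0.526 (Ccl2), -0.025 to 1.076 (Ccl3), -1.656 to 0.373 (Ccl5), -1.154 to 0.115 (Ccl7), -0.623 to 0.234 (Cxcl1) and -0.153 to 0.165 (Cxcl12 A). In CA1 they ranged from -1.223 to 0.696 (Ccl2), -0.03 to 0.694 (Ccl3), -1.282 to 1.256 (Ccl7), -0.963 to 0.752 (Cxcl1) and -0.028 to 0.37 (Cxcl12 A), and in CA3 from -0.975 to 1.379 (Ccl2), -0.408 to 1.794 (Ccl3), -0.741 to 0.571 (Cxcl1) and -0.471 to 0.072 (Cxcl12 A). For control 3 against control 1 they ranged from -0.525 to 0.329 (Ccl5) and -0.949 to 0.226 (Cxcl12 A). The causes of these changes were not tested. Dim probe sets are limited by signal near background.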

Other observations

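Genes other than chemokines met 1 or both of the limits that Ccl2, Ccl7 and Cxcl1 met, and they are named here after their values were seen, without a test. At least 4-fold above both other controls in control 3 of both fields were the acute-phase gene Lcn2 (smaller gap 4.27 log2 units), the complement gene C3 (3.30) and the heat shock gene Hspa1a (2.85). At least 3-fold lower in the lesion array than in control 3 of its field were Inhba, a subunit of activin (-3.74 in CA1 and -3.73 in CA3), the AP-1 component Fosl1 (-4.95 and -2.32), Hspa1a (-3.63 and -2.54), the prostaglandin synthase Ptgs2 (-2.12 and -2.69), the growth factor Hbegf (-1.99 and -2.94) and the TWEAK receptor Tnfrsf12a (-1.84 and -1.82). Xist (-5.13 and -1.78), Egr2 (-1.98 and -2.24) and Fosb (-1.84 and -3.06) met this limit as well. Of the non-chemokine genes named here, Hspa1a alone met both limits, as Ccl2, Ccl7 and Cxcl1 did. They are only a part of the 31 probe sets past the 4-fold limit and the 59 past the 3-fold limit.

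Ackr1, a scavenger receptor for chemokines, is also named after its values were seen and had 5959 with the lesion in CA3 and 1859 with the lesion in CA1. Its CA3 controls, at 4593 to 6457, lay above its CA1 controls, at 1903 to 2870.5, with a difference of 1.19 ± 0.24 (SE, n = 3 per field, limma adjusted p = 0.0890).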
